A study of Mus musculus with 21 samples.

Results

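Hearts of non-tumor-bearing mice given doxorubicin (DOX) were compared with hearts of non-tumor-bearing mice given normal saline (NS), by RNA sequencing of 5 libraries per group. The genes compared were those with a mean FPKM (fragments per kilobase of gene length, scaled to the total counts of the library) of at least 0.5 over these 10 libraries, which were 13645 of the 56691 genes in the deposited table. The study holds 21 heart libraries in all, and its other groups, tumor-bearing mice given NS or DOX, are not described here. DOX was injected intraperitoneally once a week, and the sample labels call the NS mice Control. Both groups carried no tumor, and no genetic change is named for either, although the labels name the breast cancer line 4T-1 as the source of these libraries too. Strain, sex and age were not given in the sources used here, so p-values measure the spread between these libraries. The cardiomyocyte markers Myh6, Tnnt2 and Tnni3 were among the abundant genes of every library, and all 4 Y chromosome genes looked at (Ddx3y, Eif2s3y, Kdm5d and Uty) were expressed in every library, with a summed FPKM of 44.3 to 66.7 in NS and 55.7 to 63.02 in DOX.

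Doxorubicin is an anthracycline that inserts between DNA bases and traps topoisomerase II on broken DNA, and its quinone can take up and pass on electrons to form reactive oxygen species. Cardiomyocytes hold many mitochondria, do not usually divide and draw most of their ATP from fatty acids, and they are known for their sensitivity to the drug. Known responses of the stressed adult heart include p53 target genes, the return of fetal genes such as Myh7 and the natriuretic peptides, and a shift of fuel from fatty acids towards glucose.

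Total counts were 13683798 to 16063691 per NS library and 14008573 to 16460372 per DOX library. Genes encoded in mitochondrial DNA held 26.5% to 28.9% of the counts in 4 NS libraries, 14.6% in NS replicate 3 and 21.3% to 26.9% in DOX. The first principal component of log counts held 55.1% of the variance and separated all DOX from all NS libraries, with DOX replicates 3 and 4 farthest out. NS replicate 3, DOX replicate 3 and DOX replicate 4 received the lowest sample quality weights of limma-voom (0.423, 0.399 and 0.446, where 1 is average), and counts without these 3 libraries are given below beside lists whose counts they move. In what follows, a number after a gene name is its log2 fold change in DOX against NS, and CPM is the count as a share of the library size scaled by TMM, the trimmed mean of M values.

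Of the 13645 genes, 5076 (37.2%) differed between DOX and NS at a Benjamini-Hochberg adjusted p under 0.05 in edgeR's quasi-likelihood test, and are named here as having risen or fallen. The numbers that rose (2535, 18.6%) and fell (2541, 18.6%) were almost equal. DEGs, which in addition changed at least 2-fold, numbered 1381 (10.1%), of which 611 (4.48%) rose and 770 (5.64%) fell. In 3513 genes (25.7%) the 5 DOX values lay wholly above or wholly below the 5 NS values. The balance of directions rested on the scaling: with library totals in place of TMM, fold changes moved by a median of -0.13 on the log2 scale and 29.8% of 4870 called genes were higher, against 49.9% with TMM. Among the gene lists described below, more members rose than fell with TMM but fewer with library totals in subunits of complexes II to IV (0 risen and 3 fallen), ketone body and branched-chain amino acid breakdown (2 risen and 6 fallen), apoptosis regulators (4 risen and 6 fallen), cell cycle and replication (1 risen and 3 fallen), doxorubicin targets, pumps and reductases (4 risen and 6 fallen), mitochondrial biogenesis and dynamics (3 risen and 4 fallen), immediate early genes (5 risen and 6 fallen) and pan-endothelial genes (0 risen and 2 fallen).

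Most changes were small. The median absolute log2 fold change was 0.34 over all genes tested and 0.67 over those called, with a median SE of 0.16 over all genes. Among called genes, 1320 rose and 1669 fell by at least 1.5-fold, 176 rose and 117 fell by at least 4-fold, and 56 rose and 31 fell by at least 8-fold. The share of each direction differed by abundance. Of 606 genes at a mean FPKM of 50 or more, 206 rose and 60 fell, with a median log2 fold change of 0.17. The excess moved with the scaling: with library totals 111 rose and 106 fell (median 0.03), and with TMM computed over the genes at 5 FPKM or more alone 186 rose and 81 fell (median 0.105). Of 4828 genes between 5 and 50 FPKM, 1168 rose and 887 fell, which turned to 603 and 1236 with library totals and to 971 and 1086 with TMM over the genes at 5 FPKM or more, and of 8211 genes below 5 FPKM, 1161 rose and 1594 fell. DOX libraries also varied more among themselves than NS libraries: the median coefficient of variation of CPM was 19.4% in DOX and 14.2% in NS, and it was larger in DOX for 67.7% of genes. Of 283 risen genes on the lists described below, 15 averaged under 0.5 FPKM in NS and passed the filter through DOX alone, and of 207 fallen genes 17 averaged under 0.5 FPKM in DOX and passed through NS alone, so that their direction was set by the filter. The risen ones were Ankrd2, Apoh, Arntl, Bcl3, Cd3e, Chil3, Clec4d, Cyp1a1, Itgb3, Lss, Nlrc5, Retnlg, S100a8, Slc43a1 and Ttr, and the fallen ones Adgre1, Aldh18a1, Apln, Ccl12, Ccl24, Cilp, Comp, Cpa3, Dbh, Gamt, Hba-a2, Meg3, Ppbp, S100b, Slc7a7, Stmn2 and Wnt5a. Of 59 lists with at least 8 tested members, 28 had neither a risen nor a fallen share above 1.5 times the share of all genes, so that their counts are a description and no result about the members, a limit chosen after the counts were seen: sarcoplasmic reticulum calcium handling, adrenergic and angiotensin signaling, complex I subunits, complex II to IV subunits, ATP synthase subunits, mitochondrially encoded proteins, tricarboxylic acid cycle, fatty acid uptake and oxidation, ketone and branched-chain amino acid breakdown, ATF4 stress response, antioxidant and glutathione enzymes, iron and heme handling, apoptosis regulators, lytic cell death and inflammasome, cell cycle and replication, mitochondrial biogenesis and dynamics, autophagy and lysosome, immediate early genes, interferon-stimulated genes, MHC class I and peptide loading, cholesterol synthesis and uptake, Wnt pathway, TGF-beta and BMP signaling, atrial cardiomyocyte, pan-endothelial, arterial/venous/endocardial endothelial, pericyte and smooth muscle.

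**Figure D1:**
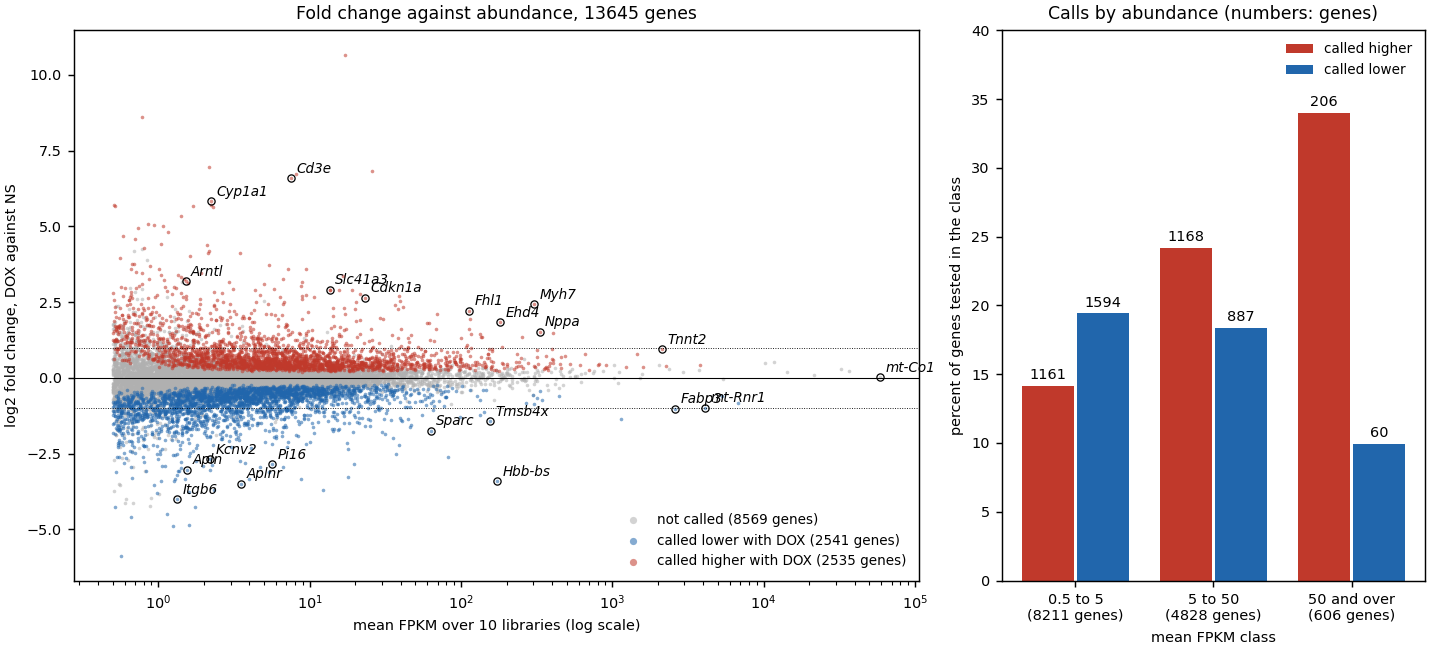
Left, log2 fold change (DOX against NS) of each of the 13645 genes tested against its mean FPKM over the 10 libraries on a log axis, with called genes in red (higher) and blue (lower), dotted lines at 2-fold, and named genes circled. Right, the percent of genes tested in each FPKM class that rose or fell, with the number of genes over each bar; 206 genes rose and 60 fell in the most abundant class.

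Among abundant genes (mean FPKM of at least 50), the smallest p-values belonged to 10 risen and 10 fallen genes. Ehd4, an endocytic membrane-shaping ATPase, was at 339.6, 319.7, 311, 340.3 and 326 CPM in the 5 NS libraries and 1013, 1060, 1396, 1205 and 1144 CPM in the 5 DOX libraries. The NS values lay close together and the groups were far apart (log2 fold change 1.83, SE 0.11, adjusted p = 8.87e-07). Fhl1, a LIM protein of the sarcomere that takes part in stretch signaling, was at 234, 145, 118, 145 and 125 CPM in the 5 NS libraries and 653, 648, 925, 802 and 549 CPM in the 5 DOX libraries, again without overlap (log2 fold change 2.22, SE 0.19, adjusted p = 5.86e-06). Splicing factor Srsf5 (1.36), the actin-severing protein Dstn (1.03), the cAMP-binding membrane protein Popdc2 (1.03), Myom2 (1.35), Art3 (1.34), Perp (0.902), Atp1b1 (0.97) and Myh7 (2.42) made up the rest of the risen genes. Fallen were Sparc and Sparcl1 (-1.74 and -1.12), which encode related matricellular proteins, the actin-sequestering thymosin Tmsb4x (-1.42), the protein kinase A inhibitor Pkia (-1.23), the myeloid lysozyme Lyz2 (-0.94), the caveolar coat gene Cav1 (-0.91), the proteasome-regulating factor Nfe2l1 (-0.64), the membrane-repair protein Trim72 (-1.28), the fatty acid elongation enzyme Tecr (-0.81) and mitochondrial 12S ribosomal RNA, mt-Rnr1 (-0.99). Tmsb4x was at 296, 284, 342, 316 and 282 CPM in the 5 NS libraries and 144, 112, 107, 110 and 93.4 CPM in the 5 DOX libraries, without overlap.

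Ribosomal RNA that passed the enrichment step, which the labels give as oligo(dT) beads or rRNA depletion, was lower in DOX: mt-Rnr1, mt-Rnr2 (-0.82) and the 18S copy Rn18s-rs5 (-0.61) fell, and mt-Rnr1, mt-Rnr2 and Rn18s-rs5 were 3 of the 5 largest losses in mean FPKM. Of the 13 mitochondrially encoded proteins, 0 rose and 0 fell in edgeR (median log2 fold change 0.11), with 0.03 for mt-Co1 (adjusted p = 0.918) and 0.48 for mt-Nd6 (adjusted p = 0.0568). At an unadjusted p under 0.05 the count of these 13 was 1, and DESeq2 called 1 higher and 0 lower. Without the 3 low-weight libraries 3 of the 13 rose.

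The largest fold changes among protein-coding genes with at least 1 CPM in both groups and no overlap, outside the lists of extracellular matrix, MHC class II and germ cell genes, came from varied functions. Risen were the exocytosis protein Syt12 (3.34), the clock gene Arntl (3.2), the magnesium transporter Slc41a3 (2.91), the matrix proteoglycan Spock2 (2.74), which is not on the matrix list, Atcay (2.73), the stress kinase Map3k6 (2.67), the predicted gene Gm38393 (2.66), the cell cycle inhibitor Cdkn1a (2.65), the interferon-inducible GTPase Gbp10 (2.56) and Gnmt (2.44), which methylates glycine. Slc41a3 was at 10.1, 9.43, 9.61, 7.02 and 12.5 CPM in the 5 NS libraries and 46.9, 72.7, 46.7, 109 and 90.98 CPM in the 5 DOX libraries. Without DOX replicate 4, the log2 fold change of Syt12 was 2.43, that of Atcay 1.94 and that of Gbp10 1.96. Atcay overlaps an antisense gene, and since strand is not stated for the counting, reads of the pair cannot be told apart. Fallen were the integrin Itgb6 (-4.0), the apelin receptor Aplnr (-3.499) and its ligand Apln (-3.03), hemoglobin Hbb-bs (-3.42), the galactosyltransferase B3galt2 (-3.199), Nrep (-3.12), Igsf1 (-2.88), the fibroblast gene Pi16 (-2.85), the aldo-keto reductase Akr1c14 (-2.73) and the potassium channel subunit Kcnv2 (-2.68). Nrep was at 28.8, 30.2, 24.6, 46.7 and 51.9 CPM in the 5 NS libraries and 5.33, 3.52, 3.72, 3.93 and 4.37 CPM in the 5 DOX libraries. Syt12 and Arntl averaged under 0.5 FPKM in NS, and Itgb6, Apln, B3galt2 and Igsf1 in DOX, so these 6 passed the filter through 1 group. Without DOX replicate 5 the fold changes of Itgb6 and B3galt2 were larger, -4.97 and -4.05.

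Sarcomere genes rose more often than they fell. In the thick filament, of 12 members tested, 4 rose and 1 fell (33.3% and 8.33%), against 18.6% in each direction over all genes. Of the 606 genes at a mean FPKM of 50 or more, 206 rose and 60 fell, so a risen excess was not particular to sarcomere genes. With library totals as scaling, 111 of these 606 rose and 106 fell. Myh7, the slow beta-myosin heavy chain that prevails before birth, was at 942, 715, 1185, 728 and 662 CPM in the 5 NS libraries and 2599, 5949, 5515, 4482 and 4173 CPM in the 5 DOX libraries, the DOX libraries all above the NS libraries (log2 fold change 2.42, SE 0.22, adjusted p = 8.18e-06). Myh6, the adult alpha-myosin, was at 22150 ± 1837 CPM in NS and 29740 ± 1404 CPM in DOX and rose (log2 fold change 0.43, SE 0.13, adjusted p = 0.0166), and Myh7b, a slow-tonic myosin, fell (-0.801). In the thin filament and Z-disc, of 21 members tested, 9 rose and 2 fell (median log2 fold change 0.38, against 0.0034 over all genes). The risen genes included Synpo2l (1.61), Tnnt2 (0.95), Csrp3 (0.94), Myoz2 (0.74) and Actn2 (0.73), which encode a Z-disc actin binder, cardiac troponin T, muscle LIM protein, calsarcin-1 and alpha-actinin, and the fallen were skeletal actin Acta1 (-1.35) and its nucleator Lmod3 (-0.81). At intercalated discs, of 21 members tested, 6 rose and 2 fell, with Xirp1 (2.11), Pkp2 (0.798), Cav3 (0.705) and Dsp (0.5) risen and Dysf (-0.56) and Utrn (-0.35) fallen. DOX replicate 3 was the lowest DOX library in 12 of the 21 thin filament genes, and without the 3 low-weight libraries 8 thick filament and 10 intercalated disc genes rose.

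Among natriuretic peptides and fetal genes, of 9 members tested, 6 rose and 1 fell (median 1.47). Nppa, atrial natriuretic peptide, was at 181, 162, 68.1, 209 and 141 CPM in the 5 NS libraries and 432, 303, 446, 601 and 398 CPM in the 5 DOX libraries, and Nppb, the B-type peptide, at 282, 139, 111, 151 and 169.5 CPM in the 5 NS libraries and 416, 130.2, 592, 762 and 464 CPM in the 5 DOX libraries. The groups did not overlap for Nppa, whereas for Nppb DOX replicate 2 lay below 4 of the 5 NS libraries (log2 fold change 1.52, SE 0.25, adjusted p = 0.000431 for Nppa; log2 fold change 1.47, SE 0.36, adjusted p = 0.00572 for Nppb). The calcineurin regulator Rcan1 (1.41) and the stretch- and TGF-beta-responsive factor Ccn2 (1.96) rose too, and Acta1, which belongs to the same program, fell. Over the 9 members the median difference from the NS mean was -0.06 on the log2 scale in DOX replicate 2, where Nppb and Ccn2 lay within the NS range and Rcan1 below it but Myh7, Fhl1 and Nppa lay above every NS library, and the other 4 DOX libraries were at 1.36 to 2.202. Among YAP and stretch-responsive genes, of 12 members tested, 4 rose and 0 fell, with Ankrd2 (3.01), Ccn2 (1.96), Amotl2 (1.66) and Ajuba (1.103).

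In sarcoplasmic reticulum calcium handling, of 21 members tested, 3 rose and 5 fell, with a median of -0.02, so that 14.3% rose and 23.8% fell against 18.6% of all genes in each direction. The sodium-calcium exchanger Slc8a1 (0.66) and phospholamban Pln (0.36) rose, and calsequestrin-1 Casq1 (-1.57), the T-type channel Cacna1g (-0.71), the calcium-binding protein Hrc (-0.61) and Camk2d (-0.399) fell. The calcium pump Atp2a2 was at 9364 ± 1144 CPM in NS and 9281 ± 1536 CPM in DOX (log2 fold change -0.01, SE 0.15, adjusted p = 0.956). Without the 3 low-weight libraries 8 of the list rose and 5 fell. Among potassium and sodium channels and pumps, of 24 members tested, 5 rose and 8 fell. The modifier subunit Kcnv2 was at 13.9, 23.4, 20.2, 17.6 and 19.4 CPM in the 5 NS libraries and 4.48, 2.54, 0.378, 4.55 and 2.92 CPM in the 5 DOX libraries, without overlap. The outward-current channel Kcnd2 (-1.29), the sodium channel subunits Scn4b (-1.703) and Scn4a (-1.63), the pacemaker channel Hcn4 (-1.12), the atrial channel Kcnj3 (-0.88) and the potassium channel Kcna5 (-0.71) also fell. The sodium pump subunit Atp1b1 (0.97) and the potassium channels Kcnj12 (0.67) and Kcnh2 (0.54) were among the 5 that rose. Without DOX replicate 2, 3 rather than 5 rose. Of 20 adrenergic and angiotensin signaling genes 5 rose (9 without the 3 low-weight libraries), among them Agtr1a (0.68), and 3 fell, among them Adra1a (-0.88) and Ace (-0.596).

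Of 23 genes of uptake and oxidation, 0 rose and 5 fell (median -0.27); the fallen share of 21.7% was near the 18.6% of all genes. Cpt2, which releases fatty acids to oxidation inside mitochondria, was at 168, 172, 184, 149.9 and 145 CPM in the 5 NS libraries and 67.9, 50.4, 32.1, 49.7 and 79.2 CPM in the 5 DOX libraries, and Fabp3, the heart's fatty acid carrier, at 2988, 2653, 3635, 2611 and 2305 CPM in the 5 NS libraries and 1532, 1428, 642, 1546 and 1838 CPM in the 5 DOX libraries. Neither overlapped between groups (log2 fold change -1.55, SE 0.19, adjusted p = 5.68e-05 for Cpt2; log2 fold change -1.02, SE 0.22, adjusted p = 0.003 for Fabp3), and the dehydrogenases Acads (-0.98), Hadh (-0.46) and Hadha (-0.39) fell too. The entry enzyme Cpt1b was at 102 ± 12.6 CPM in NS and 77.6 ± 20.5 CPM in DOX (adjusted p = 0.0728) and the carrier Cd36 at 2072 ± 302 CPM in NS and 2146 ± 282 CPM in DOX (adjusted p = 0.787). Of 19 PPAR and PGC-1 genes, 0 rose and 6 fell, with Ucp3 (-1.53), Vldlr (-0.81), Acot2 (-0.76), Plin5 (-0.68) and Plin2 (-0.57). With library totals as scaling 13 rather than 5 oxidation genes fell. DOX replicate 3 was the lowest DOX library in 21 of the 23 oxidation genes and DOX replicate 5 the highest in 20, with list medians of -0.64 and 0.01 against the NS mean. Without DOX replicate 5, 11 fell, and without the 3 low-weight libraries 4 fell and 3 rose.

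Of 23 genes of glucose uptake and glycolysis, 9 rose and 1 fell. Pfkfb3, which makes the activator of phosphofructokinase, was at 11.7, 9.02, 9.001, 9.62 and 6.77 CPM in the 5 NS libraries and 20.5, 24.5, 58.3, 57.2 and 23.9 CPM in the 5 DOX libraries, without overlap (log2 fold change 2.0, SE 0.296, adjusted p = 0.000222). The glucose transporters Slc2a1 (0.83) and Slc2a4 (0.35), the phosphofructokinase Pfkp (0.59), Ldhb (0.44), Gpi1 (0.37), Hk1 (0.36), Eno1 (0.35) and Gapdh (0.32) rose, and the liver-type phosphofructokinase Pfkl (-1.01) fell. With library totals as scaling 4 rose and 2 fell. Of glycogen genes 5 rose and 6 fell of 15, with the phosphorylase kinase subunit Phka1 at 1.45 and the branching enzyme Gbe1 at 0.73 against the glycogen-targeting phosphatase subunits Ppp1r3d (-0.82) and Ppp1r3c (-0.77). Of 8 pentose phosphate genes 0 rose and 4 fell (Rpia at -1.101, Tkt at -0.47, Rpe at -0.44 and H6pd at -0.41). In creatine synthesis Gatm, which makes the precursor of creatine, was at 6.92, 8.82, 4.197, 5.72 and 8.03 CPM in the 5 NS libraries and 2.79, 2.32, 1.32, 2.47 and 2.15 CPM in the 5 DOX libraries, and Gamt, which methylates it, had 32 to 72 counts in NS and 1 to 3 counts in DOX (adjusted p = 5.63e-06). Gatm fell, as did the brain-type creatine kinase Ckb (-0.57). Gamt was lower too, but it passed the filter through NS alone, which set its direction.

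Of 36 complex I subunits 2 rose and 2 fell (median 0.03), of 26 subunits of complexes II to IV 6 rose and 1 fell (median 0.15), of 15 ATP synthase subunits 4 rose (median 0.198), and of 19 tricarboxylic acid cycle genes 5 rose (median 0.13), among them Idh2 (0.67). Of 20 genes of ketone body and branched-chain amino acid breakdown 5 rose and 2 fell (9 and 2 without the 3 low-weight libraries), and Oxct1, which starts ketone body use, was among the fallen (-0.87). DOX replicate 3 was the lowest DOX library in 34 of 36 complex I subunits, and NS replicate 3 the highest NS library in 32 of them. Without the 3 low-weight libraries 17 complex I subunits, 17 of complexes II to IV, 9 of ATP synthase and 11 of the cycle rose and 0, 1, 0 and 0 fell. With library totals as scaling 0, 0, 1 and 2 rose. Leaving out 1 library gave 2 to 11 risen subunits of complexes II to IV, the fewest without NS replicate 5, DOX replicate 2 or DOX replicate 5, 2 to 7 of ATP synthase, the fewest without NS replicate 1, 2, 4 or 5, and 3 to 7 of the cycle. Without NS replicate 3, 6 complex I subunits rose.

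Of 45 large and 31 small ribosomal subunit proteins 21 and 15 rose and 0 fell, with medians of 0.31 and 0.31 and the largest values for Rps18 (0.75) and Rpl3 (0.65). Near-identical pseudogenes make single ribosomal counts uncertain. Of 31 proteasome subunits 15 rose and 0 fell (median 0.24), led by Psmc1 (0.86) and Psmd4 (0.799). With library totals as scaling 7, 4 and 4 rose, and 2 proteasome subunits fell. Without NS replicate 5, 13 large and 9 small subunit proteins rose, and without NS replicate 3, 30 and 24. DOX replicate 3 was the highest DOX library in 40 of the 45 large subunit genes and DOX replicate 1 the lowest in 40. In autophagy and lysosome, of 23 members tested, 5 rose and 5 fell (3 rose without NS replicate 4 or NS replicate 5), with the protease Ctsl (1.802) and the autophagosome protein Map1lc3b (0.84) among the risen and Npc1 (-0.79) and Ctsb (-0.49) among the fallen.

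**Figure D2:**
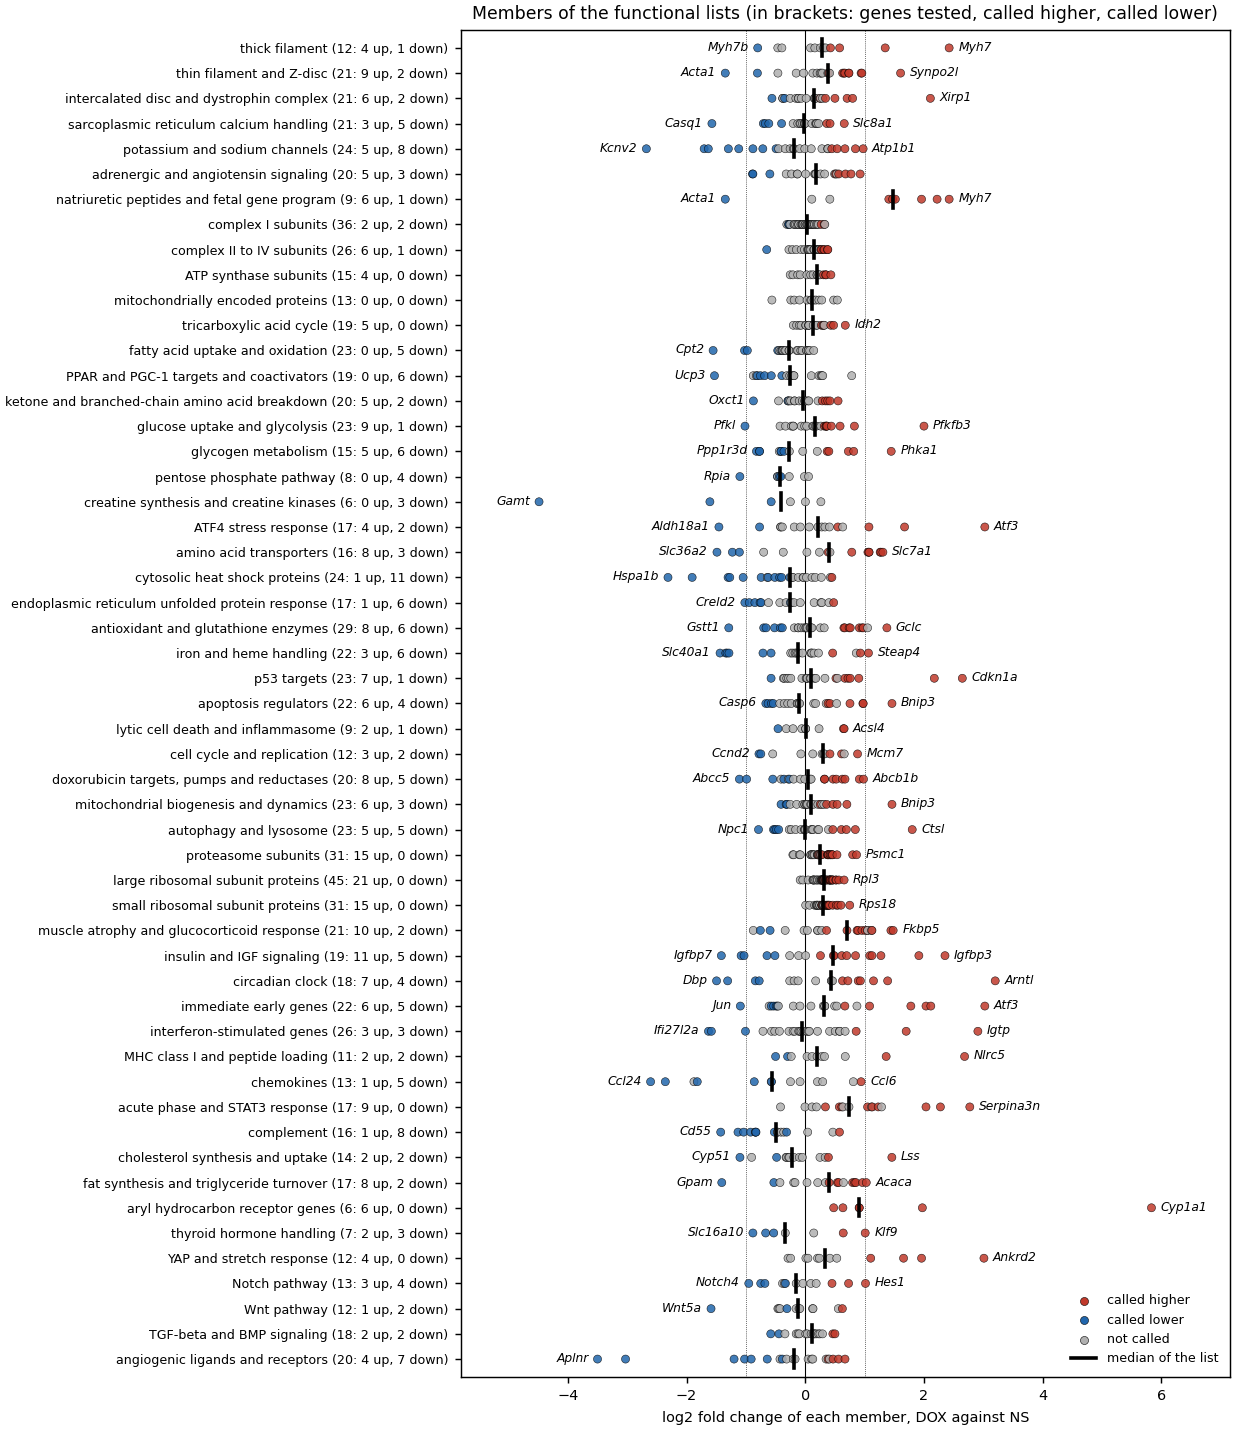
Log2 fold change (DOX against NS) of each tested member of the functional lists with at least 6 tested genes, 1 line per list, with risen genes in red, fallen genes in blue, genes not called in grey and the list median as a black bar. The fetal gene list has its median at 1.47 and the respiratory chain lists lie close to 0.

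Cdkn1a, the cell cycle inhibitor p21, was at 20.5, 26.2, 42.1, 13.6 and 16.6 CPM in the 5 NS libraries and 129.8, 155, 94.97, 194 and 174 CPM in the 5 DOX libraries, and Trp53inp1, a stress-induced p53 partner, at 22.2, 26.7, 28.99, 19.7 and 20.2 CPM in the 5 NS libraries and 110.1, 98.7, 112, 162 and 50.4 CPM in the 5 DOX libraries. Both were without overlap (log2 fold change 2.65, SE 0.28, adjusted p = 1.94e-05 for Cdkn1a; log2 fold change 2.17, SE 0.24, adjusted p = 2.48e-05 for Trp53inp1). Over the whole p53 list, of 23 members tested, 7 rose and 1 fell (median 0.09), with Perp (0.902), Fas (0.76), Sesn1 (0.72), Btg2 (0.67) and Xpc (0.52) risen and Ccng1 (-0.58) fallen. Mdm2, the main p53 ubiquitin ligase, was at 61.1 ± 6.32 CPM in NS and 62.5 ± 8.76 CPM in DOX (log2 fold change 0.03, SE 0.11, adjusted p = 0.836), and Bax at 7.67 ± 1.62 CPM in NS and 5.999 ± 1.12 CPM in DOX (adjusted p = 0.144). Of 22 apoptosis regulators tested 6 rose, with the mitophagy receptor Bnip3 (1.46), the pro-apoptotic Bcl2l11 (0.98) and the anti-apoptotic Bcl2l1 (0.97), and 4 fell, among them Casp6 (-0.66), Bak1 (-0.57) and Casp8 (-0.54), beside 18.6% of all genes in each direction (27.3% and 18.2% here). Without NS replicate 4 or NS replicate 5, 2 fell. Of 35 cell cycle and replication genes listed, 12 passed the expression filter, and 3 of them rose (Mcm7 at 0.88, Mcm3 at 0.61 and Pcna at 0.42) and 2 fell (Ccnd2 at -0.78 and Ccnd1 at -0.75).

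Among genes whose products bind, move or reduce doxorubicin, of 20 members tested, 8 rose and 5 fell (median 0.04), beside 18.6% of all genes in each direction. The direction of the excess rested on the scaling: with library totals 4 rose and 6 fell. Top2b, the topoisomerase II of cells that do not divide, rose slightly (log2 fold change 0.32, SE 0.08, adjusted p = 0.00492) and Top1 fell (-0.27). The drug exporters Abcb1b (0.98), Abcg2 (0.63) and Abcc1 (0.47) and the quinone reductase Nqo1 (0.91) rose, and the exporter Abcc5 (-1.11) and the cation transporters Slc22a3 (-0.99) and Slc22a5 (-0.55) fell. Without DOX replicate 3, 5 rather than 8 rose. Of 29 antioxidant and glutathione enzymes 8 rose and 6 fell. Gclc, the rate-limiting enzyme of glutathione synthesis, was at 12.6, 12.5, 11.6, 12.7 and 11.2 CPM in the 5 NS libraries and 23.1, 30.8, 52.3, 30.3 and 20.6 CPM in the 5 DOX libraries, without overlap (log2 fold change 1.38, SE 0.21, adjusted p = 0.000274), and its partners Gclm (0.67) and Gss (0.76), Txnrd1 (0.98), Gpx3 (0.96) and the transferases Gstm1 and Gstm2 (0.74 and 0.65) rose. Fallen were Gstt1 (-1.29), Gpx7 (-0.7), Sod3 (-0.66), Cat (-0.52), Prdx1 (-0.42) and Txn1 (-0.39) in the full set, and 3 genes of the list fell without NS replicate 3 or without NS replicate 4. The antioxidant response element core TGACNNNGC was found in the promoter windows (described below) of 6 of the 24 members with a window, against 14.0% of all 27025 genes with one. Of 22 genes of iron and heme handling 3 rose and 6 fell (median -0.12), and 13 were not called. The transferrin receptor Tfrc was at 149.7, 140.3, 147, 213 and 313 CPM in the 5 NS libraries and 104, 75.1, 46.4, 35.5 and 119 CPM in the 5 DOX libraries, without overlap, and it fell (-1.34), as did the exporter Slc40a1 (-1.44), Hjv (-1.32) and the reductase Steap3 (-1.28), whereas ferritin heavy chain Fth1 (0.46), Slc25a28 (0.93) and Steap4 (1.06) rose. Hmox1 was at 6.05 ± 3.16 CPM in NS and 11.01 ± 5.67 CPM in DOX (adjusted p = 0.0721).

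Of 9 genes of the aryl hydrocarbon receptor, a sensor of foreign and plant-derived compounds, 6 were tested and rose, Cyp1a1 having passed the filter through its DOX values alone (median 0.91). Cyp1a1, its best known target, had 0 to 8 counts in NS and 20 to 613 counts in DOX, at 0.185, 0, 0.11, 0.579 and 0.188 CPM in the 5 NS libraries and 10.98, 7.41, 38.6, 1.54 and 1.53 CPM in the 5 DOX libraries. The target Cyp1b1 was at 12.5, 11.7, 7.34, 6.66 and 6.58 CPM in the 5 NS libraries and 30.4, 27.5, 41.8, 39.5 and 36.6 CPM in the 5 DOX libraries, without overlap (log2 fold change 1.97, SE 0.199, adjusted p = 1.53e-05), and the receptor Ahr (0.91), its partner Arnt (0.48), the feedback gene Tiparp (0.63) and Nqo1 completed the list. Without DOX replicate 3 the log2 fold change of Cyp1a1 was 4.66 (adjusted p = 0.000621), against 5.83 with it, and without NS replicate 4 it was 6.53. The receptor's element TNGCGTG was found in the promoter windows of 0 of the 5 members with a window, against 5.84% of all 27025 genes with one.

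Of 24 heat shock genes 1 rose and 11 fell (median -0.25). Hsph1, a nucleotide exchange factor of the Hsp70 chaperones, was at 50.2, 81.5, 76.3, 91.7 and 67.97 CPM in the 5 NS libraries and 20, 16.5, 21.5, 16.3 and 23.7 CPM in the 5 DOX libraries, without overlap (log2 fold change -1.91, SE 0.16, adjusted p = 5.38e-06). The inducible Hspa1b was at 2.102, 13, 8.45, 13.9 and 2.95 CPM in the 5 NS libraries and 2.47, 1.65, 1.45, 1.31 and 1.15 CPM in the 5 DOX libraries, overlapping NS in NS replicate 1, and with Chordc1 (-1.3), Hspa1a (-1.27), Dnaja1 (-1.05), Hspd1 (-0.74), Dnajb1 (-0.62) and Hsf1 (-0.51) it made up most of the fallen genes. Hspa1a and Hspa1b are nearly identical in sequence, so their counts are uncertain against each other. The muscle chaperone Hspb7 was the risen gene (0.45). Of 17 genes of the unfolded protein response of the endoplasmic reticulum 1 rose and 6 fell (Creld2 at -1.02, Pdia4 at -0.94, Pdia6 at -0.85, Calr at -0.76, Hyou1 at -0.74 and Canx at -0.25), and without the 3 low-weight libraries 10 fell. The related ATF4 program, which supplies amino acids under stress, had 4 risen and 2 fallen genes of 17, and 2 risen without NS replicate 2, 4 or 5. Atf3 was at 9.52, 3.03, 1.93, 4.27 and 3.01 CPM in the 5 NS libraries and 4.42, 3.52, 5.73, 10.6 and 154 CPM in the 5 DOX libraries, high in DOX replicate 5 alone, and without that library its log2 fold change was 0.47 (adjusted p = 0.402) rather than 3.02. Cth (1.67), Slc3a2 (1.07) and Atf4 (0.55) rose too, and Aldh18a1 (-1.45) and Atf5 (-0.77) fell. Amino acid transporters rose in 8 of 16, with Slc7a1 (1.31), Slc7a6 (1.27), Slc43a1 (1.26), Slc6a6 (1.07) and Slc38a2 (1.06), and fell in 3, with Slc36a2 (-1.49), Slc38a3 (-1.23) and Slc7a7 (-1.11). In the RefSeq promoter windows (250 bases before to 50 after a start site), the heat shock element core GAANNTTC was found on either strand in 12 of the 18 members with a window, against 9.04% of all 27025 genes with one, and the ATF4 element core TGATGNAA in 5 of the 16 members with a window, against 4.51% of all 27025 genes with one.

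The circadian clock's activators, the products of Arntl and Clock, bind E-boxes and switch on Per, Cry and the output factors Dbp, Tef and Hlf, which bind D-boxes. Of 18 clock genes 7 rose and 4 fell. Arntl was at 1.05, 2.02, 3.203, 0.724 and 4.51 CPM in the 5 NS libraries and 13.6, 17.1, 18.6, 37.2 and 21.1 CPM in the 5 DOX libraries, without overlap (log2 fold change 3.2, SE 0.398, adjusted p = 6.57e-05). It averaged 0.324 FPKM in NS and passed the filter through its DOX values alone, which set its direction. The repressors Per1 (1.39), Cry2 (0.93) and Cry1 (0.63), Clock (0.89) and Nr1d1 (0.72) rose, and Dbp (-1.49), Per3 (-1.31), Hlf (-0.84) and Bhlhe41 (-0.78) fell. Per1 was at 56.7, 56.3, 58.1, 45.9 and 41.6 CPM in the 5 NS libraries and 84.2, 124, 125, 216 and 128 CPM in the 5 DOX libraries, and Per3 at 66.5, 72.7, 77.2, 74.5 and 56.99 CPM in the 5 NS libraries and 32.1, 31.8, 28.7, 27.9 and 19.9 CPM in the 5 DOX libraries, both without overlap. DOX replicate 4 was the highest DOX library in 11 of the 18 genes, with a list median of 0.77 against -0.09 to 0.28 in the other 4, and without the 3 low-weight libraries 6 rose and 5 fell with a median of -0.02 rather than 0.44. The hour at which hearts were taken is not given in the sources used here, and its part in the result was not tested. The promoters of Per3 (chr4:151044616-151044915, minus strand) and Per1 (chr11:69098699-69098998, plus strand), from RefSeq on GRCm38, are shown because these are the changed clock genes with the smallest adjusted p that hold a clock element. Capitals mark the E-box CACGTG and the D-box TTATGNAA on either strand.
Per3: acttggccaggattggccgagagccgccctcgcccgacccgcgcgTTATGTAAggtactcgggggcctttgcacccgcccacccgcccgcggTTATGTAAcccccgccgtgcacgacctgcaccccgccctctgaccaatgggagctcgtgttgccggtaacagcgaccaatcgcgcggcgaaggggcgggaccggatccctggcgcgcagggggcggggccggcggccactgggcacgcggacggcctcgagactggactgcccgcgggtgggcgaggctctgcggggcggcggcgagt
Per1: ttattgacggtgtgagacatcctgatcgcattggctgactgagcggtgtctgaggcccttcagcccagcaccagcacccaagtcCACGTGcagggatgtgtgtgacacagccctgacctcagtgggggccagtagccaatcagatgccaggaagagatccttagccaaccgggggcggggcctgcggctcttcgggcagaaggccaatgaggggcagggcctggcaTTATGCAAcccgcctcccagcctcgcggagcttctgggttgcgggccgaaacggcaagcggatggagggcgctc
Per3 holds D-boxes at bases -205 and -158 from its start and no E-box in this window, and Per1 an E-box at -166 and a D-box at -24. The E-box was found in 5 of the 15 members with a window, against 8.09% of all 27025 genes with one, and the D-box in 2 of the 15 members with a window, against 3.99% of all 27025 genes with one.

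Genes of muscle atrophy and of the glucocorticoid response rose in 10 and fell in 2 of 21 (median 0.703). Fkbp5, a chaperone of the glucocorticoid receptor and a target of it, was at 59.5, 43.03, 74.4, 21.7 and 17.5 CPM in the 5 NS libraries and 155, 143, 95.9, 114 and 96.2 CPM in the 5 DOX libraries, without overlap (log2 fold change 1.48, SE 0.32, adjusted p = 0.00305). The transcription factors Cebpd (1.05), Klf9 (1.01), Zbtb16 (0.95), Klf15 (0.89) and Foxo1 (0.36) and the signaling genes Irs2 (1.12), Errfi1 (0.87) and Sgk1 (0.703) rose, and the receptor itself, Nr3c1 (-0.76), and Tsc22d3 (-0.59) fell. Trim63, the ubiquitin ligase MuRF1, was at 192, 204, 196, 156 and 169 CPM in the 5 NS libraries and 251, 228, 231, 1524 and 261 CPM in the 5 DOX libraries. Without DOX replicate 4 its log2 fold change was 0.404 (adjusted p = 0.00924) against 1.44 with it, and that of Irs2 was 0.41 against 1.12. Fbxo32, the partner ligase atrogin-1, was at 188 ± 27.2 CPM in NS and 218 ± 175 CPM in DOX (adjusted p = 0.673). Its DOX mean rested on DOX replicate 4, without which its log2 fold change was -0.41 rather than 0.21. Without NS replicate 4 or NS replicate 5, 6 rather than 10 rose, and the median without the 3 low-weight libraries was 0.38. The promoters of Klf9 (chr19:23140976-23141275, plus strand) and Trim63 (chr4:134314870-134315169, plus strand) are shown as the changed genes of this list that hold the FOXO site TGTTTAC, in capitals and read on either strand.
Klf9: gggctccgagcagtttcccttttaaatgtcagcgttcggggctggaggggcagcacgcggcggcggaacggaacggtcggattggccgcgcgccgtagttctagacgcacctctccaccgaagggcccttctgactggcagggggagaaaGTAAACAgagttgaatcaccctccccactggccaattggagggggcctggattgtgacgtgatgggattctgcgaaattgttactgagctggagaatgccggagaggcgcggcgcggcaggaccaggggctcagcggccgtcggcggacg
Trim63: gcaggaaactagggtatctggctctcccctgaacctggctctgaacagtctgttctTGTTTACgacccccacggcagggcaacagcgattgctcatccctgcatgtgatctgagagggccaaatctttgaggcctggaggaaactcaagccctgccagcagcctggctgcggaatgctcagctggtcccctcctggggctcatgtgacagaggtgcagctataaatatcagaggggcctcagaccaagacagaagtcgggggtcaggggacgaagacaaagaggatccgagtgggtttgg
The site lies at base -100 in Klf9 and -194 in Trim63, and it was found in 2 of the 17 members with a window, against 4.05% of all 27025 genes with one.

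Insulin and IGF signaling had 11 risen and 5 fallen genes of 19. Irs1, the insulin receptor substrate, was at 10.8, 9.696, 12.6, 9.12 and 13.8 CPM in the 5 NS libraries and 42.3, 36.1, 29.4, 49.97 and 53.7 CPM in the 5 DOX libraries, without overlap (log2 fold change 1.91, SE 0.17, adjusted p = 6.67e-06). The receptors Igf1r (1.09) and Insr (0.698), the kinases Akt1 (0.62) and Akt2 (0.49), the translation brake Eif4ebp1 (0.85), the binding protein Igfbp3 (2.35) and the noncoding H19 (1.27) rose, whereas the ligand Igf1 (-1.08), the adaptor Grb10 (-1.03) and the binding proteins Igfbp7 (-1.41) and Igfbp6 (-0.64) fell. Of 17 genes of fat synthesis and storage 8 rose, with Acaca (1.03), Srebf1 (0.96), the lipase Pnpla2 (0.85), Scd1 (0.83) and Lpl (0.798), and 2 fell, Gpam (-1.41) and Lpin1 (-0.53). In cholesterol synthesis Lss (1.46) rose and Cyp51 (-1.1) fell, with 2 risen and 2 fallen of 14. Of immediate early genes 6 rose and 5 fell of 22, with the orphan receptors Nr4a1 (2.12) and Nr4a3 (1.78) against Jun (-1.09), Ier2 (-0.57), Dusp1 (-0.53) and Jund (-0.49); without DOX replicate 4, Nr4a1 was at 1.05 and Nr4a3 at 1.18. Without NS replicate 1, 3 rather than 5 fell.

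Acute phase and STAT3 genes rose in 9 and fell in 0 of 17 (median 0.74), with Serpina3n (2.77), Bcl3 (2.28), Socs3 (2.03), Cp (1.23), Osmr (1.13), Il6ra (0.62) and Stat3 (0.57). Bcl3 passed the filter through its DOX values alone. The list median was -0.07 in DOX replicate 5, within the NS libraries (-0.16 to 0.09), against 0.63 to 1.13 in the other 4 DOX libraries. Serpina3n, a secreted protease inhibitor, was at 22.8, 13.7, 9.33, 7.89 and 5.58 CPM in the 5 NS libraries and 65.4, 33.7, 91.6, 206 and 8.67 CPM in the 5 DOX libraries, so that DOX replicate 5 lay among the NS values. Without DOX replicate 4 its log2 fold change was 2.08 (adjusted p = 0.00572). Complement genes fell in 8 and rose in 1 of 16 (median -0.49), with Cd55 (-1.42), Cfp (-1.13), C1ra (-1.04), C1qc (-0.92), C1qb (-0.84) and C1qa (-0.83) among the fallen. Of 13 chemokines 5 fell, Ccl24 (-2.605), Ccl21a (-2.36), Ccl12 (-1.82), Cxcl16 (-0.86) and Cxcl12 (-0.57), of which Ccl24 and Ccl12 passed the filter through NS alone, and Ccl6 (0.94) rose; without NS replicate 1 or NS replicate 5, 3 fell. Without DOX replicate 1 Ccl12 was at -2.79.

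Interferon-stimulated genes depended on DOX replicate 4, which was the highest DOX library in 24 of 26 of them and in all 11 genes of MHC class I and peptide loading. Medians over the 26 genes against the NS mean were -0.42, -0.88, 0.15, 0.97 and -0.63 in DOX replicates 1 to 5, and -0.18, 0.03, 0.04, 0.03 and 0.15 in NS. Over all DOX libraries 3 rose and 3 fell (median -0.05), whereas without DOX replicate 4 0 rose and 8 fell (median -0.44), and without the 3 low-weight libraries 0 rose and 16 fell (median -0.77). Leaving out NS replicate 1, 2, 3 or 4 also left 0 risen. Of the 11 class I genes 2 rose and 2 fell. Igtp, an interferon-induced GTPase, was at 6.12, 7.14, 7.23, 6.15 and 7.59 CPM in the 5 NS libraries and 7.66, 4.94, 6.49, 229.7 and 9.44 CPM in the 5 DOX libraries. Its log2 fold change was 0.06 without DOX replicate 4 and 2.91 with it, and those of Irgm1, Nlrc5 and Tap1 were 0.403, 0.92 and 0.54 against 1.7, 2.68 and 1.36. None of these 4 genes passed an adjusted p of 0.05 without it. Ifi27l2a (-1.63), Oas2 (-1.58) and Oasl2 (-1.01) fell. The interferon element TTTCNNTTT was found in the promoter windows of 16 of the 20 members with a window, against 12.1% of all 27025 genes with one.

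**Figure D3:**
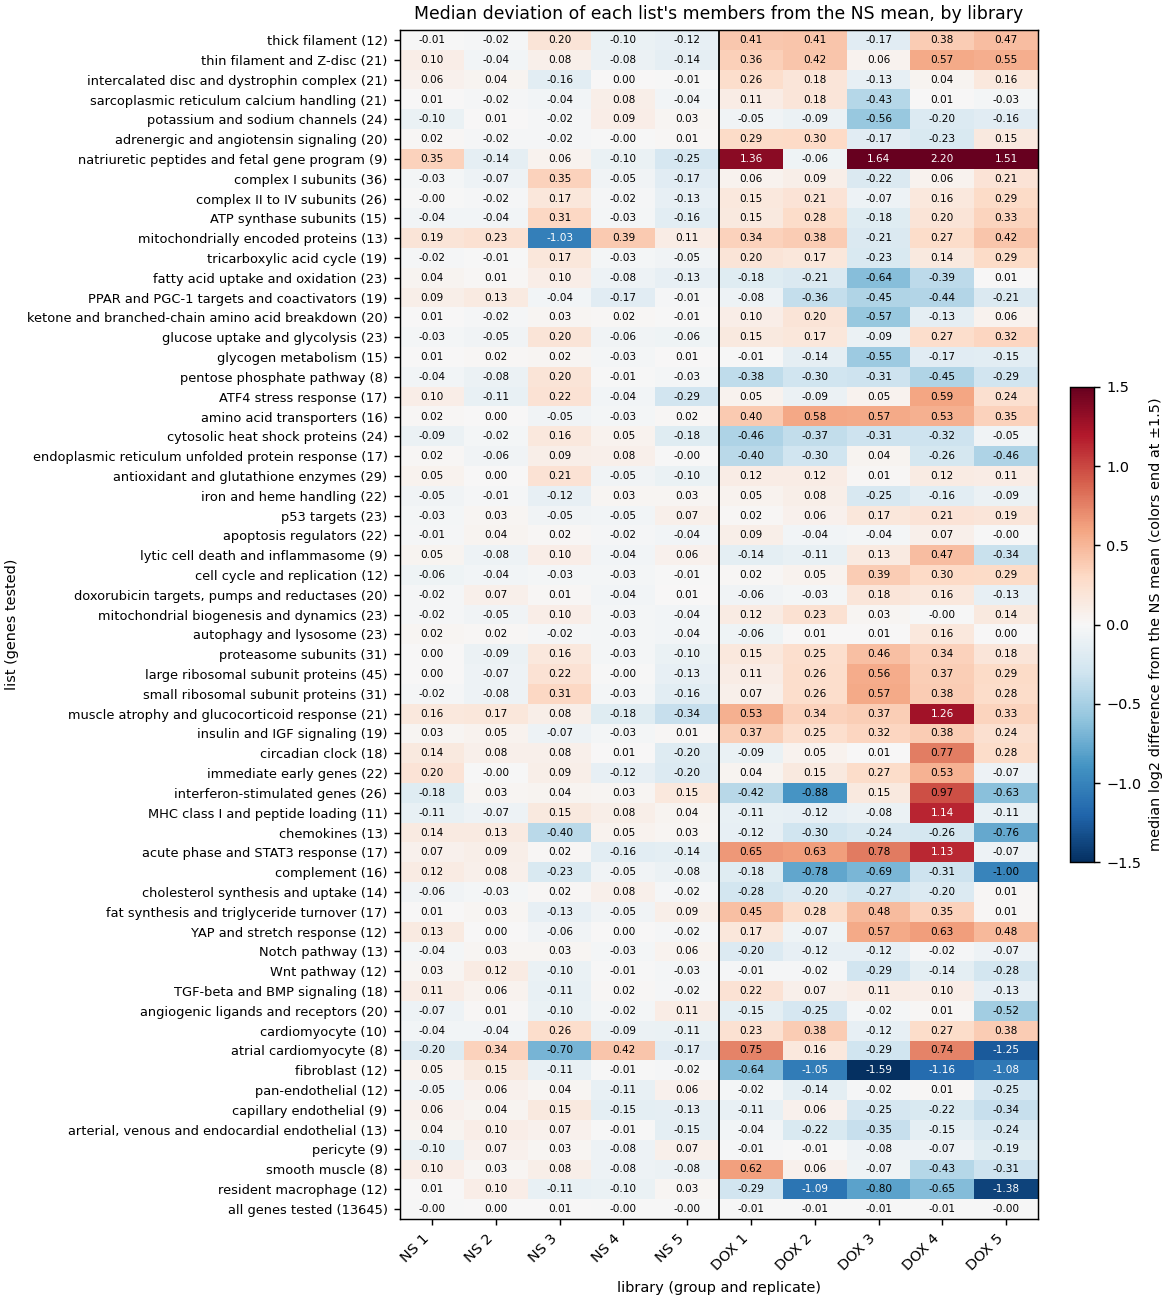
Median log2(CPM + 0.5) of each list's tested members minus the NS mean, in each of the 10 libraries, for lists with at least 8 tested genes, with red above and blue below the NS mean, colors ending at 1.5 and the value printed in each cell. DOX replicate 4 alone is high in interferon-stimulated genes (0.97) and MHC class I (1.14), and DOX replicate 3 is the lowest DOX library in fatty acid oxidation (-0.64).

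Markers of heart cell types were set side by side, and in bulk tissue fewer cells of a type and less RNA per cell cannot be told apart. Of 10 cardiomyocyte markers 3 rose (Tnnt2 at 0.95, Myh6 at 0.43 and Pln at 0.36) and 0 fell, with a summed FPKM of 19450 to 28950 in NS and 21770 to 25540 in DOX. Without NS replicate 3, the NS library with the highest sum, 6 rose, and without the 3 low-weight libraries 8. Other leave-outs went the other way: Myh6 and Pln were not called without NS replicate 4. Pln also lost its call without NS replicate 1, 2 or 5 or DOX replicate 1 or 2. Of 8 atrial markers Nppa rose, Gja5 (-0.75) and Kcnj3 fell, and Myl7 (0.09), Myl4 (-0.46) and Sln (0.22) were not called. Fibroblast markers fell in 8 and rose in 2 of 12 (median -0.95), and their summed FPKM, 635 to 748 in NS and 363 to 429.7 in DOX, did not overlap. The genes of secreted or surface products Pi16 (-2.85), Lum (-2.21), Islr (-1.96), Cd34 (-1.44), Dpt (-1.39) and Mfap5 (-1.09) fell, whereas Pdgfra (0.44), the receptor that defines these cells, and Scara5 (0.47) rose, and Dcn (0.29, adjusted p = 0.116) and Tcf21 (-0.48, adjusted p = 0.0953) were not called. Pdgfra was at 60.1 ± 8.65 CPM in NS and 81.5 ± 7.66 CPM in DOX. Activated fibroblast markers, Comp (-2.23), Postn (-1.99), Cilp (-1.69) and Meox1 (-1.66), fell in 4 of 6 tested; Cilp, Comp and Postn are matrix genes, 4 of the 10 listed were below the filter, and Cilp and Comp passed it through NS alone.

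Of 12 pan-endothelial genes 2 rose (Flt1 at 0.38 and Pecam1 at 0.37) and 1 fell (Tie1, -0.39), with a median of -0.13. Pecam1 lost its call in 8 of the fits that left out 1 library, and kept it without NS replicate 2 or DOX replicate 5. Flt1 and Tie1 kept their calls in each of these fits. Of 9 capillary genes Aqp7 (-1.36), Meox2 (-1.0) and Fabp4 (-0.602) fell. Among angiogenic ligands and receptors 4 rose and 7 fell of 20. Aplnr, the endothelial apelin receptor, was at 15.6, 15.4, 14.9, 32.6 and 38 CPM in the 5 NS libraries and 2.73, 0.823, 1.7, 1.85 and 3.15 CPM in the 5 DOX libraries, and its ligand Apln, expressed at the tips of growing vessels, at 5.996, 7.61, 5.13, 10.6 and 13.04 CPM in the 5 NS libraries and 0.844, 0.973, 1.26, 0.771 and 1.304 CPM in the 5 DOX libraries. Both fell without overlap (log2 fold change -3.499, SE 0.36, adjusted p = 1.74e-05 for Aplnr; log2 fold change -3.03, SE 0.295, adjusted p = 1.23e-05 for Apln), and the growth factors Vegfd (-1.199), Vegfc (-0.91) and Vegfa (-0.64) fell too. Apln averaged 0.312 FPKM in DOX and passed the filter through NS alone, which set its direction. Lymphatic markers had the chemokine Ccl21a (-2.36) and Pdpn (-0.98) fallen and the lymphatic factor Prox1 (0.56) risen, and Lyve1 at 15.3 ± 3.39 CPM in NS and 18.5 ± 7.301 CPM in DOX (adjusted p = 0.344). Pericyte markers had 2 risen (Pdgfrb at 0.59 and Rgs5 at 0.24) and 2 fallen (Higd1b at -1.37 and Colec11 at -0.95) of 9, and smooth muscle markers 1 risen (Mylk, 0.32) and 1 fallen (Smtn, -0.84) of 8. Of markers of cardiac nerves, 2 of 8 neuronal and 4 of 11 Schwann cell genes were tested. The noradrenaline-making enzyme Dbh (-2.21), Stmn2 (-1.27) and the Schwann cell gene S100b (-1.74) passed the filter through NS alone, which set their direction, and the Schwann cell gene Mal (-0.497) fell. Of 9 conduction system genes 3 were tested, of which Hcn4 and Smoc2 (-1.62) fell and the other was not called, at 0.45.

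Resident macrophage markers fell in 8 and rose in 0 of 12 (median -0.83), with Cbr2 (-2.05), Adgre1 (-1.98), F13a1 (-1.201), Csf1r (-1.199) and Mrc1 (-0.69), and their summed FPKM was 105 to 144 in NS and 61.2 to 89.4 in DOX. C1qa, C1qb and C1qc are in this list and in that of complement, so the same 3 genes count in both. DOX replicate 1 was nearest to NS, with a list median of -0.29 against -0.65 to -1.38 in the other 4. Of 12 neutrophil markers 5 passed the filter. S100a8, Retnlg and Clec4d averaged under 0.5 FPKM in NS and passed through the DOX libraries, so their number says nothing about the others. S100a9, a calcium-binding alarmin of neutrophils, was at 0.618, 0.606, 0.387, 1.88 and 0.376 CPM in the 5 NS libraries and 5.46, 2.39, 24.8, 9.87 and 2.92 CPM in the 5 DOX libraries, without overlap and highest in DOX replicates 3 and 4 (log2 fold change 3.59, SE 0.66, adjusted p = 0.00103). S100a8 was at 0.494, 0.0673, 0.166, 0.362 and 0.188 CPM in the 5 NS libraries and 1.23, 1.12, 12.97, 6.4 and 1.07 CPM in the 5 DOX libraries, and Retnlg had 0 to 1 counts in NS and 11 to 97 in DOX. Clec4d (2.77) rose too, and Csf3r was not called (0.23, adjusted p = 0.609). Without DOX replicate 3 S100a9 and S100a8 were at log2 fold changes of 2.76 and 3.22, and without NS replicate 4 S100a9 was at 4.19. Chil3, made by alveolar-type and recruited macrophages and by neutrophils, had 0 to 6 counts in NS and 17 to 89 in DOX, and Gpnmb (1.63) and Ly6c2 (0.75) rose among 7 monocyte markers, of which 3 rose (1 rose and 2 fell without the 3 low-weight libraries). Without NS replicate 4 Gpnmb was at 2.45, and Chil3 too averaged under 0.5 FPKM in NS and passed through DOX.

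Of 10 erythroid genes 5 were tested and fell, Hba-a2 having passed the filter through NS alone. Hbb-bs, an adult beta-globin, was at 128, 158, 482, 148 and 240.2 CPM in the 5 NS libraries and 2.34, 69.5, 7.68, 24.4 and 5.06 CPM in the 5 DOX libraries, without overlap (log2 fold change -3.42, SE 0.73, adjusted p = 0.00251), and Hba-a2 (-3.78), Hbb-bt (-3.35), Hba-a1 (-2.6) and Alas2 (-2.03) fell with it; the paired globin genes are nearly identical, so counts could be split between copies. Without DOX replicate 2, the highest DOX library, the log2 fold changes were -4.57 for Hbb-bs, -6.19 for Hba-a2, -5.74 for Hbb-bt and -3.38 for Hba-a1, and without NS replicate 3 Hba-a2 was at -3.03. Of 9 platelet genes 4 were tested, of which Pf4 (-2.29) and Ppbp (-2.17) fell and Itgb3 (1.499) and Gp1ba (0.79) rose, Ppbp having passed through NS alone and Itgb3 through DOX alone. Of 12 B cell genes 2 were tested, of which Ighm (-1.55) fell, and of 8 mast cell genes only Cpa3 (-1.77) was tested, which passed the filter through NS alone. Of 13 T cell genes 2 passed the filter, Cd3e through its DOX values. Cd28 was at 7.29, 6.46, 6.68, 7.24 and 7.46 CPM in the 5 NS libraries and 3.38, 4.12, 6.298, 5.86 and 5.98 CPM in the 5 DOX libraries, lower in all 5 DOX libraries but not called (log2 fold change -0.46, SE 0.19, adjusted p = 0.0692). Cd3e was at 0.865, 0.606, 1.16, 0 and 0.627 CPM in the 5 NS libraries and 4.29, 7.48, 13.4, 297 and 9.21 CPM in the 5 DOX libraries, and without DOX replicate 4 its log2 fold change was 3.66 rather than 6.59; its partners Cd3d and Cd3g were below the filter. Ttr (3.68) and Apoh (1.702), plasma proteins made by liver, rose and passed the filter through their DOX values, whereas Alb, Apoa1 and the other 3 liver genes listed were below the filter. Markers of skeletal muscle (summed FPKM 28.7 to 62.7 in NS and 22.6 to 27.6 in DOX), lung (0.06 to 0.84 and 0.46 to 1.6) and epithelium (0.02 to 0.23 and 0.01 to 0.29) were low beside cardiomyocyte genes. The sum for skeletal muscle was mostly Myl1, which fell (-1.09); of the 7 genes tested the other 6 had positive log2 fold changes (median of the 7 1.28), of which Mylpf (1.13) rose. The part of cell makeup in the gene changes above was not tested.

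**Figure D4:**
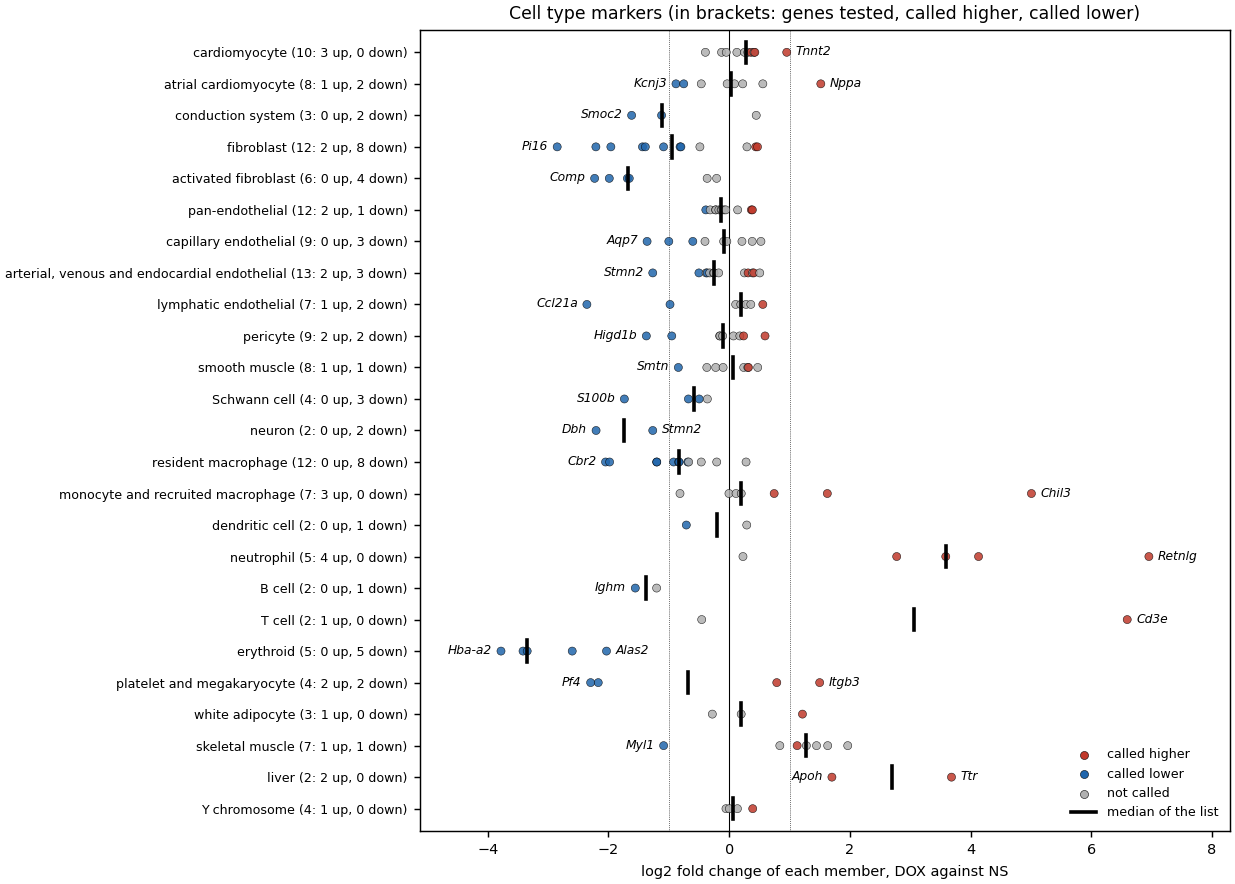
Log2 fold change (DOX against NS) of each tested cell type marker, 1 line per cell type with at least 2 tested markers, with risen genes in red, fallen genes in blue, genes not called in grey and the median as a black bar. Erythroid, fibroblast and resident macrophage markers lie mostly below 0 and pan-endothelial markers around it, and 3 of the 5 neutrophil markers shown passed the filter through DOX alone.

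In the deposited KEGG annotation, the following pathways, among those that the study names for non-tumor-bearing mice, held both directions. The study's sets held genes changed only in mice without tumor, whereas all called genes count here, so the sets differ. By direction, the study reports PI3K-Akt and MAPK signaling mainly for downregulated genes and JAK-STAT signaling for upregulated genes. Of genes tested, fatty acid metabolism had 7 higher and 11 lower of 53, glutathione metabolism 12 higher and 9 lower of 52, the pentose phosphate pathway 3 higher and 6 lower of 21, PI3K-Akt signaling 60 higher and 63 lower of 274, MAPK signaling 36 higher and 52 lower of 245, JAK-STAT signaling 25 higher and 21 lower of 92, AMPK signaling, which responds to energy shortage, 39 higher and 13 lower of 108, apoptosis 23 higher and 23 lower of 123 and p53 signaling 13 higher and 13 lower of 63. In the pathways listed so far, between 12.04% and 36.1% of the genes moved in 1 direction, against 18.6% of all genes. The study chose these pathways on these libraries. The highest of these shares was that of risen AMPK genes and the lowest that of fallen AMPK genes. Protein digestion and absorption, which the study also names, for downregulated genes of non-tumor-bearing mice, had 10 higher and 26 lower of 47. Its share of fallen genes (55.3%) was the highest among pathways with 15 to 200 tested genes, and the pathway includes collagen genes. Next came other types of O-glycan biosynthesis (3 higher and 16 lower of 32), mucin type O-glycan biosynthesis (1 higher and 7 lower of 15), the renin-angiotensin system (3 higher and 7 lower of 15) and type I diabetes mellitus (4 higher and 10 lower of 22). The highest shares of risen genes were in circadian rhythm (13 higher and 4 lower of 28, 46.4%), other autophagy (12 higher and 5 lower of 33), AMPK signaling, carbohydrate digestion and absorption (9 higher and 4 lower of 25) and type II diabetes mellitus (11 higher and 3 lower of 31).

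Notch genes had 3 risen, led by its target Hes1 (1.01), and 4 fallen, led by the receptor Notch4 (-0.95), of 13. Wnt genes had 1 risen and 2 fallen, with the ligand Wnt5a at -1.59, of 12. TGF-beta and BMP genes had 2 risen (Bmpr2 at 0.5 and Bmp6 at 0.47) and 2 fallen (Tgfb3 at -0.58 and Acvrl1 at -0.44) of 18. Mitochondrial biogenesis and dynamics had 6 risen, led by Bnip3, and 3 fallen, Polg (-0.41), Twnk (-0.32) and Tfam (-0.31), of 23, and the coactivator Ppargc1a was at 149 ± 18.9 CPM in NS and 257 ± 215 CPM in DOX (adjusted p = 0.102), with a log2 fold change of 0.78 that was 0.12 without DOX replicate 4. Of genes of lytic cell death 2 rose (Acsl4 at 0.65 and Ninj1 at 0.64) and 1 fell (Gsdmd, -0.46) of 9. Of thyroid hormone genes 2 rose and 3 fell of 7, with the transporter Slc16a10 (-0.88) among the fallen. Of nuclear long noncoding RNAs Snhg14 (2.49), Neat1 (1.32) and Malat1 (0.91) rose and Meg3 (-0.79) fell. Malat1 and Neat1 stay in the nucleus, and Malat1 was at 1403, 1629, 2011, 1455 and 1397 CPM in the 5 NS libraries and 2680, 3213, 2634, 3866 and 2400 CPM in the 5 DOX libraries.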

How the data were processed

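RNA was sequenced from the hearts of 5 NS and 5 DOX mice. Per the labels, RNA was enriched with oligo(dT) beads or rRNA depletion and read as paired ends; the submitters' processing notes name cutadapt, FastQC, HISAT2, HTSeq 0.6.1, DESeq2 1.34.0 and GRCm39. The authors deposited 1 table, in which each library has raw read counts and FPKM values per gene. Recomputing FPKM from the counts, gene lengths and column totals matched 100% of the deposited FPKM values within 0.011. Its annotation columns were used for pathways.

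Counts of the 10 libraries were scaled by TMM and tested with edgeR 4.0.16 (quasi-likelihood F test, two-sided) in R 4.3.3, over the genes whose FPKM averaged 0.5 or more in these libraries, with Benjamini-Hochberg adjustment. CPM values are TMM-scaled. Each SE is the absolute log2 fold change divided by the square root of its F statistic, not an SE estimated by the fit. At an unadjusted p under 0.05, 6348 genes differed. The genes, the gene lists and their rules were chosen with earlier results of these data known. Lists are described by counts and medians, with no set test. Named are each list's most abundant member and largest change per direction, the 10 largest changes per direction without overlap, the 10 smallest p per direction at a mean FPKM of at least 50, and the 5 largest gains and losses of mean FPKM (further genes are named with their values already known). Some genes that these rules name are not reported here. Protein-coding status came from GENCODE M21 by gene ID, and promoter windows from RefSeq on GRCm38.p6, another build than the table's, matched by symbol. Alternatives changed the scaling, filter, test, threshold and libraries (limma 3.58.1, DESeq2 1.42.0).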

Additional observations from a re-analysis of the deposited data

Results flagged for a closer look

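A library whose gap to the nearest of the other 4 exceeded Dixon's 95% limit (0.71 of the range of its group) was looked for in the CPM of 385 genes and in 3 measures per library, 776 groups of 5 in all, of which 79 held one. Chance gives about 1 in 20 groups, genes are not independent, and no explanation was tested.

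The highest NS value belonged to replicate 3 for Acads at 159.7 CPM (others 122 to 128), Alas2 at 20.2 CPM (others 5.13 to 8.71), Bax at 10.5 CPM (others 6.51 to 7.61) and C1qa at 33.2 CPM (others 18.3 to 21.8). Further genes were Casq1 at 104 CPM (others 54.2 to 68.2), Fth1 at 1232 CPM (others 826 to 899.5), Gstm2 at 134 CPM (others 95.2 to 102) and Hba-a2 at 4.804 CPM (others 1.003 to 1.41). The same held for Hbb-bt at 23.4 CPM (others 4.45 to 9.405), Hrc at 1819 CPM (others 1223 to 1276), Idh2 at 1149 CPM (others 828 to 915) and Ldhb at 1401 CPM (others 1143 to 1213). Others were Mb at 10910 CPM (others 7258 to 7851), Pfkl at 118 CPM (others 77.03 to 86.6), Tnni3 at 4364 CPM (others 2625 to 2875) and Tnnt2 at 16460 CPM (others 9391 to 10730). The same held for Twnk at 41.4 CPM (others 32.3 to 33.9). The lowest NS value belonged to replicate 3 for Adgre1 at 2.82 CPM (others 5.35 to 5.96), Ajuba at 1.66 CPM (others 3.32 to 3.83), Arnt at 42.3 CPM (others 57.2 to 63.05) and Atp2a2 at 7372 CPM (others 9553 to 10270). Further genes were Casp8 at 7.95 CPM (others 12.3 to 13.9), Cav1 at 269 CPM (others 360.4 to 375), Igfbp7 at 51.7 CPM (others 72.5 to 79.6) and mt-Co1 at 59160 CPM (others 96320 to 105200). Replicate 3 was also the lowest NS library in percent of counts from mitochondrially encoded genes, at 14.6 against 26.5 to 28.9.

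The highest DOX value belonged to replicate 4 for Atcay at 92.9 CPM (others 9.21 to 27.5), Bcl2l11 at 41.7 CPM (others 20.5 to 25.9), Cd3e at 297 CPM (others 4.29 to 13.4) and Chgb at 22.4 CPM (others 0.69 to 6.42). Further genes were Eif4ebp1 at 88.5 CPM (others 29.3 to 42.4), Fbxo32 at 524 CPM (others 89.6 to 184), Gbp10 at 40.3 CPM (others 7.98 to 12.5) and Igtp at 229.7 CPM (others 4.94 to 9.44). The same held for Irgm1 at 192 CPM (others 19 to 26.6), Irs2 at 90.2 CPM (others 17.9 to 24.9), Klf15 at 156 CPM (others 49.3 to 70.2) and Nlrc5 at 57.1 CPM (others 1.995 to 9.35). Others were Nr4a1 at 95.5 CPM (others 11.3 to 23.7), Nr4a3 at 36.9 CPM (others 6.68 to 14.1), Ppargc1a at 638 CPM (others 128 to 199) and Slc7a1 at 118 CPM (others 63.9 to 78.2). The same held for Syt12 at 43.7 CPM (others 4.603 to 13.4), Tap1 at 32.5 CPM (others 4.91 to 9.29) and Trim63 at 1524 CPM (others 228 to 261).

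The highest DOX value belonged to replicate 3 for Cyp1a1 at 38.6 CPM (others 1.53 to 10.98), Gclm at 70.9 CPM (others 26.4 to 38.8), Mcm3 at 9.45 CPM (others 4.87 to 6.17) and Stfa2l1 at 1.95 CPM (others 0.308 to 0.46). The lowest DOX value belonged to replicate 3 for Art3 at 589.5 CPM (others 822 to 881), Fcrls at 0.063 CPM (others 0.308 to 0.384), Mb at 6075 CPM (others 8291 to 8569) and mt-Nd6 at 5109 CPM (others 6528 to 6688).

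The highest DOX value belonged to replicate 1 for Cav1 at 249 CPM (others 158 to 178), Jund at 19.1 CPM (others 15.8 to 16.4), Lyve1 at 31.2 CPM (others 13.3 to 18.1) and Mfap5 at 20.5 CPM (others 6.93 to 10.2). Further genes were Postn at 46.5 CPM (others 13.2 to 15.7). The lowest DOX value belonged to replicate 1 for Comp at 0.13 CPM (others 0.614 to 0.771).

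The highest NS value belonged to replicate 1 for Fcrls at 5.19 CPM (others 3.69 to 3.97), Fhl1 at 234 CPM (others 118 to 145), Mcm3 at 5.62 CPM (others 3.47 to 3.98) and Rpl3 at 74.05 CPM (others 63.5 to 66.5). Further genes were Srsf5 at 364 CPM (others 282 to 302). The lowest NS value belonged to replicate 1 for Bcl3 at 0.185 CPM (others 0.651 to 0.828).

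The highest NS value belonged to replicate 4 for Cacna1g at 17.1 CPM (others 9.33 to 11.3), Ccnd2 at 82.8 CPM (others 58.4 to 65.2), Retnlg at 0.0723 CPM (others 0 to 0) and S100a9 at 1.88 CPM (others 0.376 to 0.618). Further genes were Scn4b at 136 CPM (others 95.2 to 105) and Stfa2l1 at 0.0723 CPM (others 0 to 0).

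The highest DOX value belonged to replicate 5 for Atf3 at 154 CPM (others 3.52 to 10.6), B3galt2 at 6.75 CPM (others 0.898 to 2.27) and Itgb6 at 3.299 CPM (others 0.308 to 0.693).

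The highest NS value belonged to replicate 5 for Igf1r at 43.3 CPM (others 38.7 to 39.8). The lowest NS value belonged to replicate 5 for Bhlhe41 at 21.1 CPM (others 24.8 to 26.1) and Creld2 at 8.71 CPM (others 11.7 to 12.4).

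The highest DOX value belonged to replicate 2 for Hba-a2 at 0.599 CPM (others 0 to 0.0771) and Hbb-bt at 4.56 CPM (others 0.13 to 0.231).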

How the results depend on the processing

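Counts stood at 5076 called genes and 1381 DEGs. With no filter, 5789 genes were called (2972 higher, 2817 lower) and 2361 were DEGs (1151 higher, 1210 lower) of 31204, and with a mean FPKM of at least 5, 2324 genes were called (1157 higher, 1167 lower) and 348 were DEGs (153 higher, 195 lower) of 5434 (in both the number of genes tested and the genes behind TMM changed). At an adjusted p under 0.01, 3041 genes were called (1490 higher, 1551 lower) and 1122 were DEGs (462 higher, 660 lower). Under scaling by library totals 4870 genes were called (1453 higher, 3417 lower) and 1513 were DEGs (485 higher, 1028 lower). Limma on log2(FPKM + 0.1) and log2(FPKM + 1) is scaled by totals too. Under the first pseudocount 4702 genes were called (1313 higher, 3389 lower) and 1371 were DEGs (408 higher, 963 lower). Under the second 4720 genes were called (1315 higher, 3405 lower) and 564 were DEGs (179 higher, 385 lower), since the pseudocount shrinks the fold change of low genes. RLE and upper-quartile scaling, TMM without mitochondrially encoded genes, all 21 libraries in 1 fit, DESeq2, robust moderation and voom weights kept each of the 6 counts within 1.5 times. Leaving out 1 library gave 4243 to 5187 called genes (2085 to 2571 higher, 2147 to 2616 lower) and 1233 to 1520 DEGs (492 to 654 higher, 691 to 866 lower). Without the 3 libraries of lowest weight, an alternative chosen after seeing the data, 4615 genes were called (2312 higher, 2303 lower) and 1054 were DEGs (415 higher, 639 lower), and 3894 of the 5076 calls remained and 3 had the opposite sign. Of 361 called genes named here, 57 were not called when at least 1 of the 10 libraries was left out. With the replicate number as a replicate block, 4608 genes were called (2232 higher, 2376 lower) and 1326 were DEGs (541 higher, 785 lower); same-numbered libraries had deviations from the group means correlated at -0.107 to 0.0434, so the number was not taken to pair libraries. Mb, not called over all libraries, had a log2 fold change of 0.16 without those 3 libraries against -0.05. Fbxo32, not called over all libraries, had a log2 fold change of -0.57 without those 3 libraries against 0.21.

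The cause of differences between libraries was not tested. Genes below about 1 CPM rest on few counts, and 5 libraries a group limit what single-gene tests can show.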

Other observations

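Outside the lists and the rule for named genes, and chosen after their values were seen, some genes had the largest changes with few counts in a group. Each of the 5 genes given here averaged under 0.5 FPKM in its lower group and passed the expression filter through the other group alone, which set its direction. Doc2b, a calcium sensor of vesicle release, had 3 to 10 counts per library in NS and 86 to 198 in DOX (adjusted p = 2.91e-06). Chgb, a protein of secretory granules, had 0 to 9 counts in NS and 9 to 291 in DOX (adjusted p = 0.00261), and Stfa2l1, a stefin expressed by myeloid cells, 0 to 1 in NS and 4 to 31 in DOX (adjusted p = 0.00139). Fcrls, an Fc receptor-like gene of macrophages, had 51 to 84 counts in NS and 1 to 5 in DOX (adjusted p = 5.86e-06). The potassium channel Kcnj14 had 54 to 99 counts in NS and 1 to 13 in DOX (adjusted p = 4.22e-05).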
